A study of Mus musculus with 32 samples.

Results

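The genes described here are 9 mouse genes of detoxification and repair of oxidised molecules: Ephx1, Ces1d, Gstt1, Gstt2, Gstt3, Gstm1, Gsta4, Cmbl and Msrb3. They are 9 of the 35458 genes measured in parathyroid cells. They were picked because several of them had low levels in cells grown in a rat host, with close paralogs added, so their level in the rat host against the mouse host is a description with no test. The label "low in rat-host cells" held for 8 of them to different degrees. Gstt2 did not follow it.

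The study asked whether mouse embryonic stem cells (ESC) can form parathyroid glands in hosts that cannot make their own, by complementing blastocysts, so that the donor cells can build the gland that the host lacks. Each of the 32 RNA-seq libraries came from 10 to 20 cells picked by hand for tdTomato, a red reporter joined to Pth, the parathyroid hormone gene, and the libraries form 8 experiments of 4. Control cells came from 2 experiments with C57BL/6-Pthtm1(P2A-tdTomato)/+ mice, the first labelled male at 8 weeks and the second female at 11 weeks. Mouse-host cells came from 4 experiments with Gcm2-/- hosts on a BDF1B6 background that carried Pth-tdTomato mouse ESCs, all at 9 weeks, with experiments 1 to 3 labelled female and experiment 4 male. The graft was 1 experiment with grafted ESC-derived cells under the same strain label (male, 12 weeks), and the rat host 1 experiment with a Gcm2-/- Wistar rat that carried Pth-tdTomato mouse ESCs (neonate, sex unknown). All 32 libraries therefore hold mouse cells with the Pth reporter, and 24 hold ESC-derived cells. In the rat-host cells the species and the age of the host cannot be told apart, because the other 7 experiments used mice of 8 to 12 weeks. Whether the 4 libraries of an experiment came from different animals is not given in the sources used here.

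Cells clear foreign and self-made reactive molecules in steps. Epoxide hydrolases and carboxylesterases add water across reactive epoxides or ester bonds, and glutathione S-transferases (GST) join the small peptide glutathione to electrophiles so that transporters can export the product. Methionine sulfoxide reductases undo the oxidation of methionine in proteins. Many of these enzymes are best known from the liver, and the GST genes lie in clusters of near relatives, the theta genes on chromosome 10 and the mu genes on chromosome 3.

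Depth was 29471254 to 32264864 reads in the libraries of control experiment 1 and 9470744 to 15098391 in the other 28. The parathyroid markers Pth, Gcm2, Casr, Chga and Gata3 had reads in every arm, which fits the label of the cells. Their summed level was 157371 to 177217 reads scaled to library size (CPM) in the rat-host libraries and 257401 to 367287 CPM in the others. Most of that gap lay in the 2 most abundant, Pth (43140 CPM against 89258 CPM in the mouse host, 48.3%, edgeR adjusted p = 0.0354) and Chga, a granule protein (121051 against 214519 CPM, 56.4%, adjusted p = 0.0226). The transcription factor genes Gcm2 (708 and 964 CPM) and Gata3 (635 and 577 CPM) and the calcium receptor gene Casr (378 and 601 CPM) were not called. Scaling by trimmed means (TMM) allows for such a shift. With plain library totals the median log2 fold change of all genes between rat host and mouse host moved from -0.03 to 0.13. Markers of other cell types were low in the rat host: all 6 hepatocyte and all 7 adipocyte markers had no read there, and 8 fibroblast markers summed to 255 to 411 CPM, against 441 to 3115 CPM in the mouse host and 660 to 4045 CPM in control cells. These fibroblast sums do not show the change of single markers. All 7 of these markers that averaged at least 8 CPM had negative log2 fold changes of rat host against mouse host. Their median was -7.53, and the values ran from -12.7 to -0.05. The rat-host libraries held no read of Col1a2, 1 of the 8 markers. The part of fibroblast reads in the differences below was not tested. Reads were counted on mouse transcripts in all arms. How fully these would count reads from cells of the rat host was not tested, so marker sums may not compare between host species. The other 8 lists (endothelial, mural, macrophage, thyroid, thymic epithelial, erythroid, T cell and Schwann cell markers) each summed to at most 36.9 CPM in the rat host and 46.6 CPM elsewhere, with Cd3d, Cd3e and Cd3g at 0 in every arm. Of these lists, the T cell and thymic epithelial ones had their highest median in the rat host (13.9 and 9.88 CPM), and the others did not.

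In the rat-host cells, 4 of the 9 genes kept under 10% of their mouse-host level, 3 kept between 10% and 50%, Gsta4 kept 64.9% and Gstt2 was level at 101%. As log2 fold changes of rat host against mouse host, Ces1d had -5.37 (SE 0.48), Cmbl -4.56 (SE 0.48), Gstt1 -4.32 (SE 0.41) and Msrb3 -4.29 (SE 0.39). Ephx1 had -2.12 (SE 0.21), Gstm1 -1.81 (SE 0.69), Gstt3 -1.23 (SE 0.27), Gsta4 -0.58 (SE 0.21) and Gstt2 0.06 (SE 0.28). The median of the 9 was -2.12 and that of all 15698 genes tested was -0.03. The summed level of the 9 genes was 307 to 324 CPM in the 4 rat-host libraries, 449 to 665 CPM in the graft and 717 CPM or more in each of the 24 control and mouse-host libraries. In bulk pools, fewer cells that use a gene and less of its RNA per cell cannot be told apart.

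**Figure D1:**
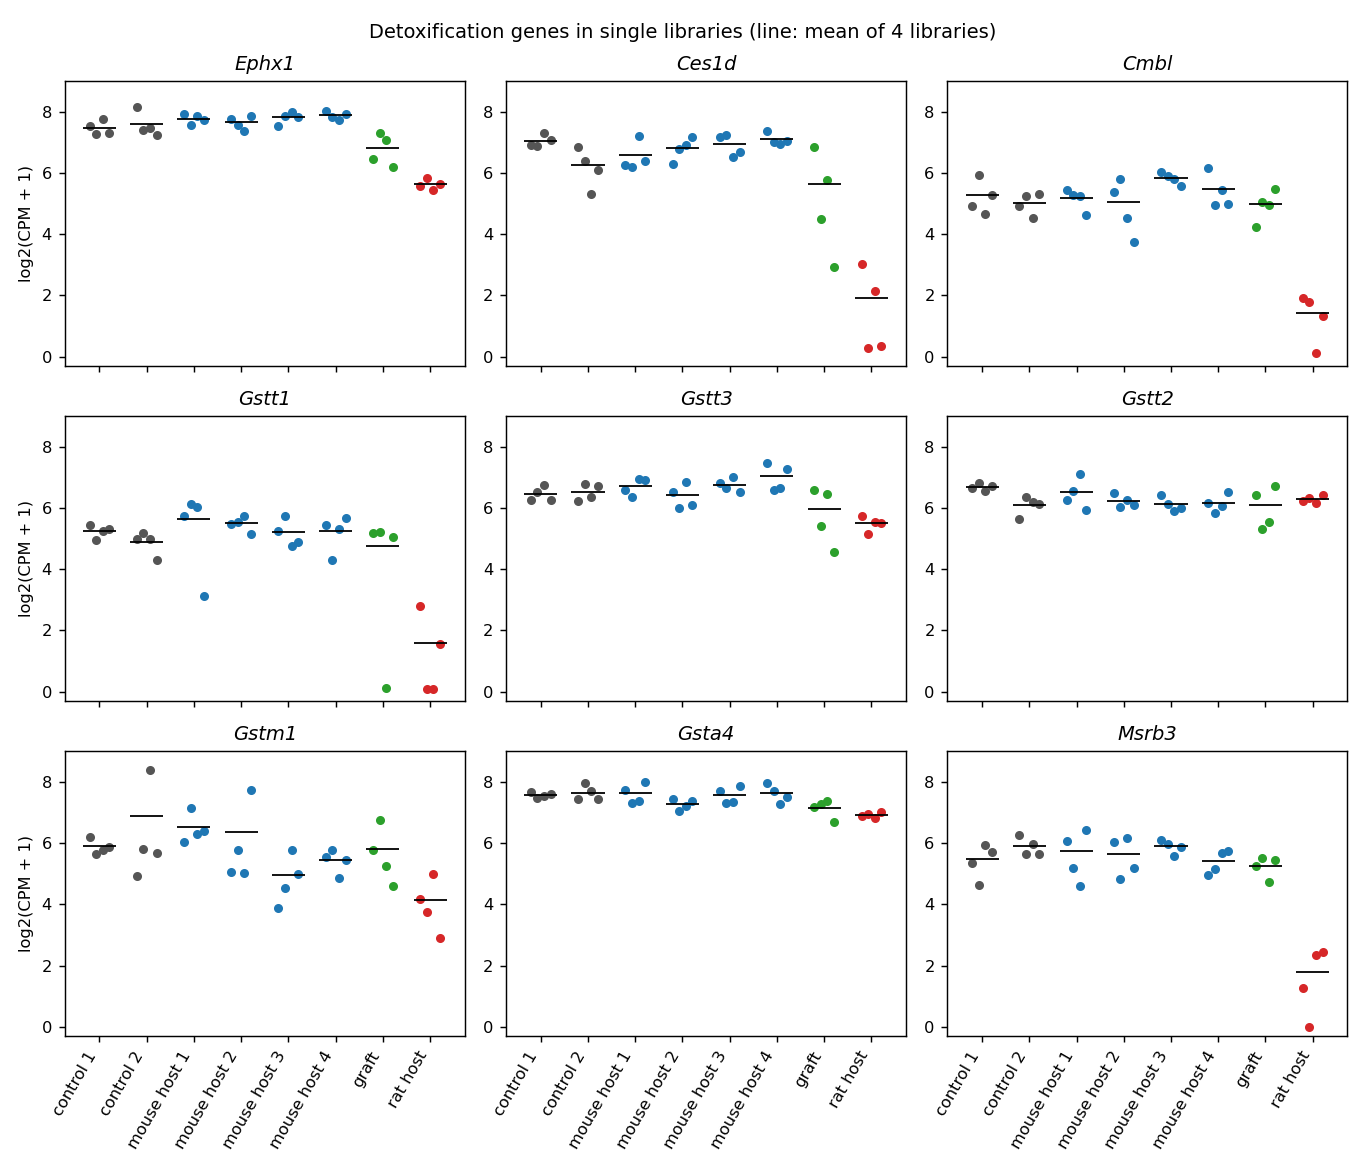
Level of each of the 9 genes in each of the 32 libraries, as log2(CPM + 1) on the vertical axis, for the 8 experiments along the horizontal axis; each point is 1 library and each line the log2 of the mean of 4 libraries plus 1. The rat-host points of Ces1d, Cmbl, Gstt1 and Msrb3 lie near the bottom of their panels, and those of Gstt2 lie among the points of the other experiments.

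Ces1d, Cmbl, Gstt1 and Msrb3 were near absent in the rat-host cells, with reads that came and went between libraries. Ces1d encodes a carboxylesterase that hydrolyses esters and stored lipids. It was at 7.22, 0.212, 3.38 and 0.270 CPM in the 4 rat-host libraries, from 99, 3, 46 and 4 reads. The mouse-host libraries ran from 71.7 to 166 CPM with a median of 121, and the control libraries from 38.6 to 159 CPM with a median of 115. The lowest graft library (6.60 CPM) lay under the highest rat-host one. The value depended on single rat-host libraries: without the first the log2 fold change was -6.49, and without the fourth -4.97.

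Cmbl encodes carboxymethylenebutenolidase, an ester hydrolase known for activating some prodrugs. It was at 2.77, 2.47, 0.0735 and 1.49 CPM in the rat host, while the mouse-host libraries held 12.5 to 70.2 CPM with a median of 41.3. The control libraries held 22.1 to 60.1 CPM and the graft 17.6 to 43.4 CPM, so the rat-host libraries lay under all 28 others.

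Gstt1 encodes a theta-class GST that acts on small halogenated compounds. It was at 5.91, 0.0707, 0.0735 and 1.96 CPM in the rat host, where 2 libraries had 1 read each. The mouse-host libraries ran from 7.65 to 69.4 CPM with a median of 43.1, and those of the controls from 18.7 to 42.9 CPM. One graft library also had 1 read (0.0923 CPM), while the other 3 held 32.4 to 36.4 CPM. Without the first rat-host library the log2 fold change of rat host against mouse host was -5.77.

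Msrb3 encodes a methionine sulfoxide reductase found in the endoplasmic reticulum and mitochondria. It was at 1.39, 0, 4.11 and 4.46 CPM in the rat host, and its 0 reads in the second library allow up to 0.212 CPM. The other arms were well above, at 23.3 to 85.0 CPM in the mouse host, 23.5 to 75.2 CPM in control cells and 25.6 to 44.6 CPM in the graft. Its rat-host libraries too lay under all 28 others. Without the fourth rat-host library its log2 fold change was -4.77.

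Ranges were compared for the 8945 genes that averaged at least 8 CPM, among them all 9 described here. Of these 9, Ephx1, Cmbl and Msrb3 had every rat-host library under all 28 other libraries, a pattern that 1.41% of the 8945 genes shared. The genes were picked on these levels, so the count is a description. Over the 9 genes and 4 rat-host libraries, 5 of 36 values were at 3 reads or fewer, against 1 of 252 values in the other libraries.

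The stretches upstream of the start sites are shown for 4 of the genes, because their levels in the rat host differ widely or are near absent: the neighbours Gstt1 and Gstt3 (4.82% and 41.6% of the mouse-host level in the rat host) and the near-absent Cmbl and Msrb3. They are the 250 bases before the RefSeq start on GRCm38.p6, at chr10:75797732-75797981 (minus strand), chr10:75781423-75781672 (minus strand, the first of 2 start sites listed), chr15:31568583-31568832 (plus strand) and chr10:120898972-120899221 (minus strand). Capitals mark the only match, in the Msrb3 stretch, to either of 2 motifs searched on both strands, and it is the reverse complement of GCGTG.
Gstt1: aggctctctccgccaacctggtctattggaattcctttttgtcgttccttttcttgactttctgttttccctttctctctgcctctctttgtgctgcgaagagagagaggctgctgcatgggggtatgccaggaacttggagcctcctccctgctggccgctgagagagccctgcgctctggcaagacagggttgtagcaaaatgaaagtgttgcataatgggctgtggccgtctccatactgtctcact
Gstt3: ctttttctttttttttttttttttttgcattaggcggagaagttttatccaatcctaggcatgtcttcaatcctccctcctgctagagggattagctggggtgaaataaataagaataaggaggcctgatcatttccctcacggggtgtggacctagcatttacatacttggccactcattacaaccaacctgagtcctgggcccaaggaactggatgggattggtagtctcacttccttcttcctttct
Cmbl: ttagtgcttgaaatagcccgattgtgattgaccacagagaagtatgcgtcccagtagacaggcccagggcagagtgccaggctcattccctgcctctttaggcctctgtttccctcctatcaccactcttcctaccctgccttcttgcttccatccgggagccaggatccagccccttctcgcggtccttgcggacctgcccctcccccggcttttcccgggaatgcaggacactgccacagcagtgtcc
Msrb3: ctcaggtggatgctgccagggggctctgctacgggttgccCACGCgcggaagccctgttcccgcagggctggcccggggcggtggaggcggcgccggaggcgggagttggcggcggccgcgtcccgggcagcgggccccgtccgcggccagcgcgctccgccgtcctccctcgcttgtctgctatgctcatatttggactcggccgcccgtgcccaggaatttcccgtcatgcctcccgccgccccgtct

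The search covered 300 bases a start site, 250 before it and 50 after, and the RefSeq promoter table used here was matched for 6 of the 9 genes. TGACNNNGC, the core of the antioxidant response element bound by NRF2, was in none of the 6 and in 12.4% of 32851 promoters. GCGTG, the core bound by the aryl hydrocarbon receptor, was in those of Gstm1 and Msrb3 and in 32.4% of all promoters. These are matches of letters in 1 window, and say nothing about binding. The Msrb3 promoter stood apart in composition, with 74.0% G and C and 38 CpG sites, against medians of 52.7% and 7 over all promoters. The Gstt1 promoter had 53.0% and 8, and that of Cmbl 58.3% and 9.

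Ephx1 encodes microsomal epoxide hydrolase, which opens reactive epoxides of drugs and aromatic compounds. Only its rat-host libraries lay apart from every other arm, under all 28 other libraries, as in 1.41% of the 8945 genes compared. Its rat-host libraries were at 47.0, 56.2, 42.0 and 49.2 CPM. The mouse-host libraries ran from 165 to 259 CPM with a median of 227, and the control libraries from 149 to 284 CPM with a median of 172. The graft lay between, at 86.7, 157, 133 and 72.5 CPM, and its range met neither the rat host's nor the mouse host's but overlapped the controls'. The 4 rat-host libraries differed little among themselves, with a coefficient of variation of 12.1%, against 120% for Ces1d and 137% for Gstt1. Its soluble relative Ephx2, which hydrolyses epoxides of fatty acids, averaged 39.5 ± 13.2 CPM in the rat host (SD, n = 4 libraries) and 86.9 ± 18.9 CPM in the mouse host (SD, n = 4 experiments). That difference did not pass the edgeR quasi-likelihood test (log2 fold change -1.09, SE 0.31, adjusted p = 0.202).

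The 3 expressed theta GST genes lie side by side on chromosome 10 and had 3 different outcomes. Gstt3 was at 52.6, 34.4, 45.8 and 44.98 CPM in the rat-host libraries and between 62.7 and 177 CPM in the mouse host (median 99.9), with 2 graft libraries, at 41.9 and 22.7 CPM, within or under the rat-host range. Gstt2 was at 73.3, 78.3, 70.9 and 85.4 CPM in the rat-host libraries and between 55.5 and 138 CPM in the mouse host (median 69.7), so its ranges overlapped. Its log2 fold change of 0.06 was 0.26 with library totals and 0.40 on log2(TPM + 1), where the median of all genes was 0.13 and 0.22; it was never negative in 49 fits.

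RefSeq orders the locus as Cabin1, Ddt, Gstt3, Gstt1, Gstt4, Gstt2 and Mif. Rat-host levels as a share of the mouse host were 75.4% for Cabin1, 64.04% for Ddt (D-dopachrome tautomerase), 41.6% for Gstt3, 4.82% for Gstt1, 101% for Gstt2 and 130% for Mif, a cytokine related to Ddt. Gstt4 had no read in the rat or mouse host. The lowest share thus sat at a single gene, between theta genes with far higher ones.

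**Figure D2:**
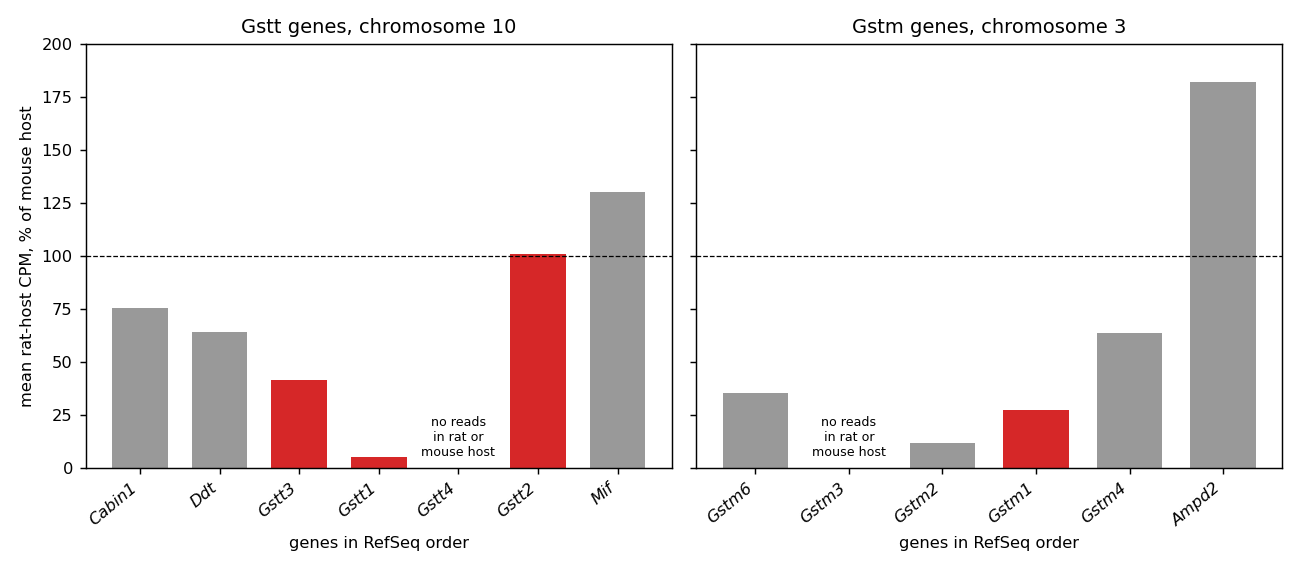
Mean rat-host level as a percentage of the mean mouse-host level on the vertical axis, for genes of the Gstt locus on chromosome 10 (left) and the Gstm locus on chromosome 3 (right) in RefSeq order along the horizontal axis; red bars are genes among the 9 and the dashed line marks 100%. Gstt1 is at 4.82% between Gstt3 at 41.6% and Gstt2 at 101%, and Gstm1 is at 27.1% between Gstm2 at 11.6% and Gstm4 at 63.6%.

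Gstm1 encodes a mu-class GST of broad substrate range and varied widely within experiments. Its rat-host libraries were at 17.1, 12.5, 30.8 and 6.42 CPM, with 13.7 to 211 CPM in the mouse host (median 49.4) and 29.7 to 336 CPM in control cells (median 53.7). The ranges overlapped, with 5 of the 28 other libraries at or under the highest rat-host one. Its 2 highest values came from the 2 libraries richest in fibroblast markers: 336 CPM in control experiment 2 replicate 3, where 8 fibroblast markers summed to 4045 CPM, and 211 CPM in mouse-host experiment 2 replicate 4, where they summed to 3115 CPM. The other libraries of those experiments held 29.7 to 54.3 and 31.7 to 53.5 CPM of Gstm1. Without both libraries the log2 fold change of rat host against mouse host was -1.59 in place of -1.81. The share of fibroblast reads in the remaining difference was not tested.

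Gstm2, the next gene along, was high in the same 2 libraries, at 63.2 and 47.2 CPM, against 5.12 to 19.2 and 0 to 7.58 CPM in the other 3 libraries of each experiment. Ephx1 was at 175 and 229 CPM in them, where the other libraries of those experiments held 149 to 284 and 165 to 214 CPM. Gsta4 encodes an alpha-class GST that removes 4-hydroxynonenal, a product of lipid peroxidation. It was at 117, 123, 111 and 128 CPM in the rat host and between 132 and 255 CPM in the mouse host (median 168). The lowest graft library, at 102 CPM, lay under the rat host. On the length-scaled TPM measure Gsta4 averaged 272 in the mouse host and 233 in the rat host, which made it the most abundant of the 9 in both.

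**Figure D3:**
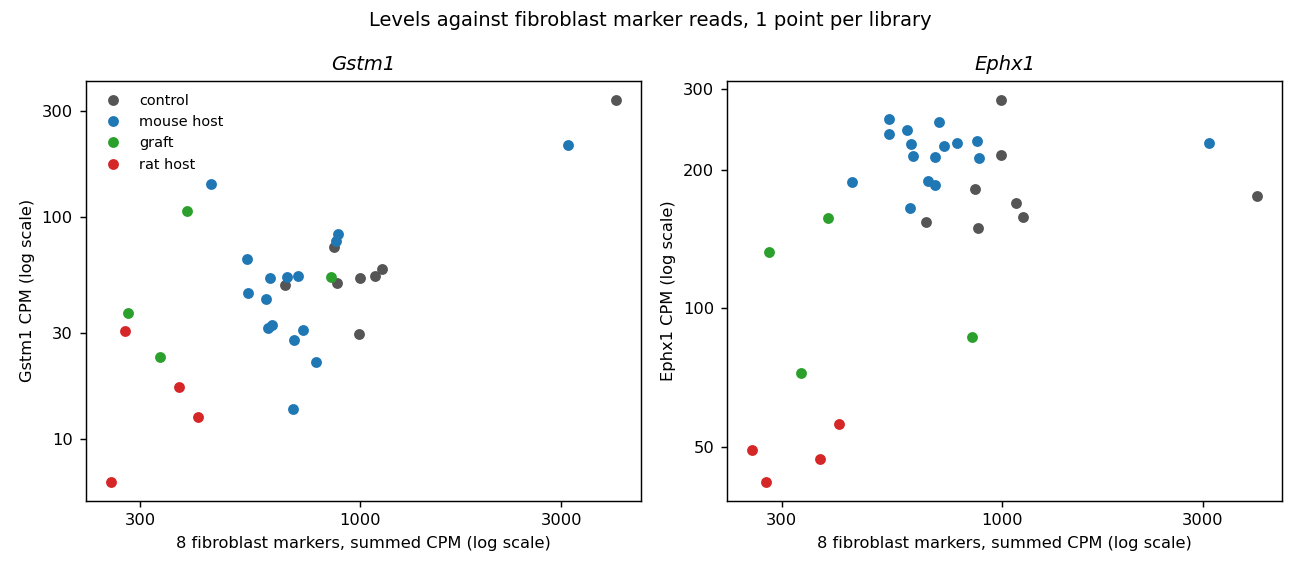
Level of Gstm1 (left) and Ephx1 (right) in CPM on a log vertical axis against the summed CPM of 8 fibroblast markers on a log horizontal axis, 1 point per library, coloured by arm. Gstm1 is highest, at 336 and 211 CPM, in the 2 libraries with the most marker reads, and Ephx1 is at 175 and 229 CPM in them.

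Close paralogs show how far the low levels reached within each family. The lists hold 45 further GST, epoxide hydrolase, carboxylesterase and methionine sulfoxide reductase genes, of which 27 passed the expression filter and 15 averaged at least 8 CPM. edgeR's quasi-likelihood test called 1 of the 27 lower and 0 higher in the rat host than in the mouse host at a Benjamini-Hochberg adjusted p below 0.05, where 0.427% of all genes were called lower and 0.217% higher. Of the 15, 10 had negative and 5 positive log2 fold changes, with a median of -0.82. The paralogs passed through the filter partly by being present in the other arms, so these counts describe and do not test the lists.

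The called paralog was Gstk1, a kappa-class GST of mitochondria and peroxisomes. It was at 25.3, 25.2, 12.9 and 20.4 CPM in the rat host, 52.8 to 120 CPM (median 91.3) in the mouse host and 83.8 to 114 CPM in control cells, with a log2 fold change of -2.06 (SE 0.31, adjusted p = 0.0384 by edgeR). No other library reached down to the rat-host range. The call was lost without mouse-host experiment 2 replicate 3 (adjusted p = 0.0517) and when 1 of 4 whole experiments was left out (adjusted p up to 0.0925), with the log2 fold change between -2.20 and -1.90 throughout. Mgst1, a membrane-bound GST, was at 35.1, 18.7, 22.6 and 16.6 CPM in the rat-host libraries, and the mouse-host ones held 51.5 to 170 CPM (median 74.3). It missed the threshold by edgeR (log2 fold change -1.73, SE 0.32, adjusted p = 0.0696) and passed it without rat-host replicate 1 (0.0429) or mouse-host experiment 4 replicate 1 (0.0353). Gstp1, the pi-class GST and at 993 TPM in the mouse host the most abundant GST here, averaged 275 CPM in the rat host and 502 CPM in the mouse host (-0.82, SE 0.20, adjusted p = 0.143). DESeq2 called Gstk1, Mgst1 and Gstp1 lower. Limma on log2(TPM + 1) and on log2(TPM + 0.1) called Gstk1 and Mgst1 but not Gstp1. These fits called far more of all genes than the main one. The rat-host libraries of Gstk1, Mgst1 and Gstp1 lay under all 28 others, 3 of the 15 abundant paralogs, where 1.41% of the 8945 genes did.

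Among the mu genes, Gstm2 had -3.04 (SE 1.01, adjusted p = 0.290 by edgeR), Gstm7 -1.45 (SE 0.38, adjusted p = 0.163), Gstm5 -0.83 (SE 0.34, adjusted p = 0.401) and Gstm4 -0.62 (SE 0.31, adjusted p = 0.504), each of rat host against mouse host. Gstp2 had -1.33 (SE 0.69, adjusted p = 0.535). Paralogs near their mouse-host level were Mgst3 at 107%, Gstz1, which also degrades tyrosine products, at 81.0%, and Gsto1 at 109%. Gstcd was at 159%, with an SE of 0.61 around a log2 fold change of 0.75. Where Msrb3 was at 4.94% of the mouse host, the other reductases Msrb2 and Msra were at 108% and 113%, with log2 fold changes of 0.16 and 0.23 (adjusted p = 0.876 and 0.890 by edgeR). Beside Ces1d, no other carboxylesterase averaged 8 CPM in these cells. Ces1e averaged 3.94 CPM in the mouse host and had none in the graft or the rat host. Gsto2 averaged 7.39 CPM in the mouse host and had 3 reads over the 4 rat-host libraries, a difference that did not pass the edgeR test (adjusted p = 0.117). The 10 other paralogs tested averaged under 4 CPM in the mouse host and none was called: Gstm6, Gsta3, Gstp3, Mgst2, Ephx4, Ces2b, Ces2e, Ces2f, Ces2g and Msrb1.

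**Figure D4:**
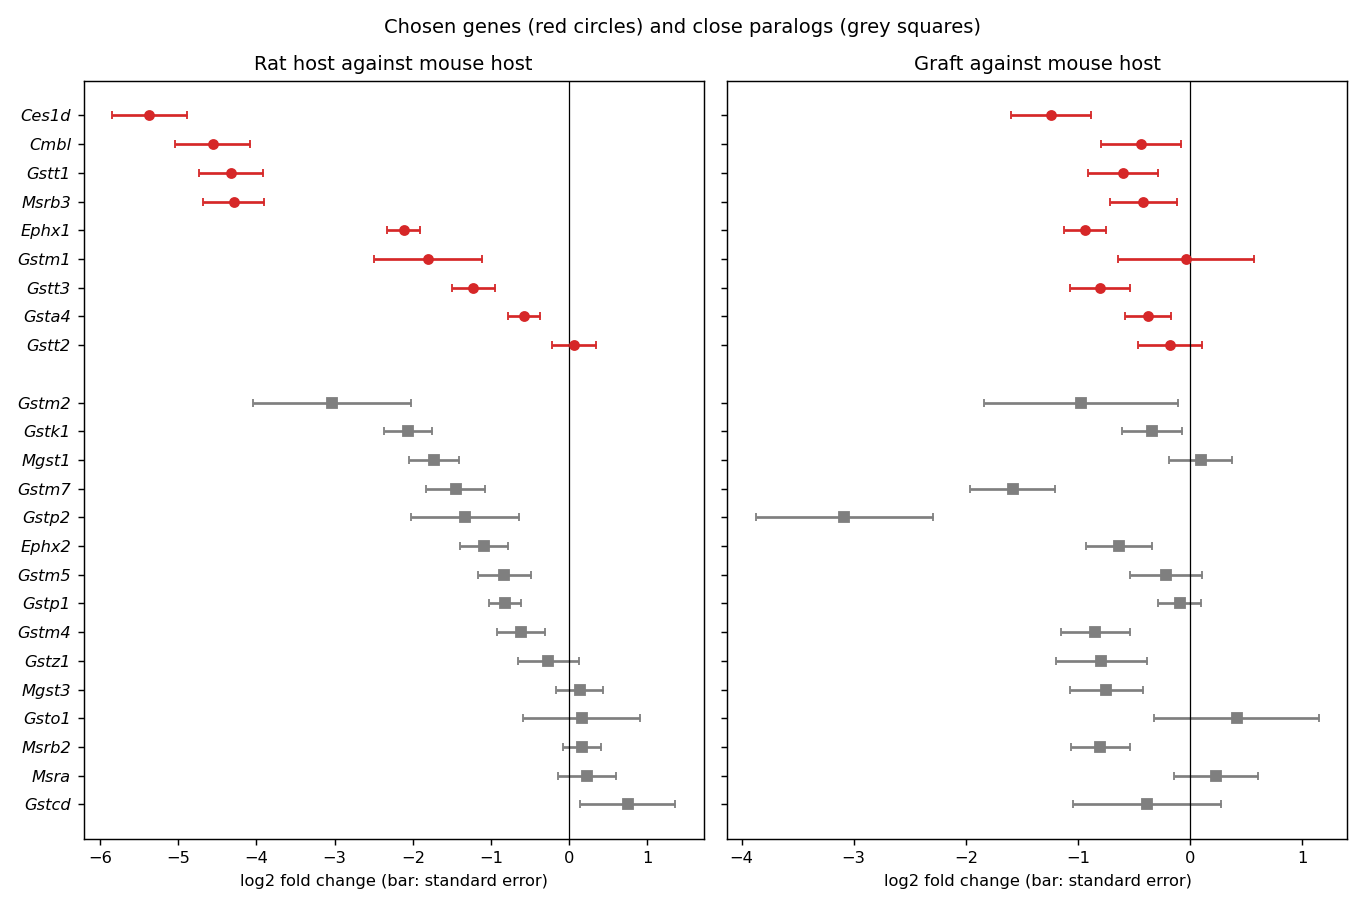
Log2 fold change against the mouse host on the horizontal axis, with the standard error as a bar, for the 9 genes (red circles) and the 15 paralogs that averaged at least 8 CPM (grey squares), in the rat host (left) and the graft (right). The rat-host values of the 9 genes run from -5.37 for Ces1d to 0.06 for Gstt2 and the graft values run from -1.24 for Ces1d to -0.04 for Gstm1, which is at 0.18 without both fibroblast-rich libraries.

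Other steps of the pathway were examined with 7 lists of 195 genes: phase I oxidation, carbonyl reduction, other conjugation, glutathione supply, targets of NRF2, xenobiotic receptors and export. edgeR tested 168 and called 4 lower (0.427% of all genes) and 2 higher (0.217%) in the rat host than in the mouse host. The share of higher calls over all genes depends on scaling, with 34 higher and 67 lower here, 115 and 70 with library totals, and 575 and 72 on log2(TPM + 1). In phase I, Cyp4v3, a fatty acid hydroxylase of the P450 family, fell from 16.03 ± 3.41 to 0.844 ± 1.64 CPM (log2 fold change -4.26, SE 0.59, adjusted p = 0.0344). Maob, the monoamine oxidase, fell from 65.0 ± 24.4 to 4.05 ± 5.32 CPM (-3.95, SE 0.59, adjusted p = 0.0402). In the graft it was at 9.51 CPM (-2.70, adjusted p = 0.125). Both values rest in part on 1 rat-host library, and without rat-host replicate 3 the log2 fold changes were -9.27 for Cyp4v3 and -5.20 for Maob. Aldh1a3, which makes retinoic acid, rose from 520 ± 83.1 to 1354 ± 298 CPM (1.42, SE 0.21, adjusted p = 0.0368).

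Carbonyl reduction had negative values for 18 of the 20 genes that averaged at least 8 CPM (median -0.63). Cbr3 fell from 105 ± 21.8 to 26.2 ± 12.7 CPM (-1.97, SE 0.31, adjusted p = 0.0412 by edgeR) and Dhrs7 from 212 ± 14.1 to 78.3 ± 16.6 CPM (-1.38, SE 0.20, adjusted p = 0.0352). Both had every rat-host library under all 28 others, which 1.41% of the 8945 genes of at least 8 CPM shared. They were named for their calls in this same contrast, so this is a description. Dcxr, a xylulose reductase of the same list, had -0.94 (adjusted p = 0.113). In these sentences the mouse-host SD is over 4 experiments and the rat-host SD over 4 libraries. Of the NRF2 list only the peroxiredoxin gene Prdx4 was called, higher at 216 ± 22.6 against 92.1 ± 12.9 CPM (1.27, SE 0.20, adjusted p = 0.0426). Prdx5 and Sqstm1 had -0.71 and -0.78 (adjusted p = 0.208 and 0.127). These calls lie close to the threshold, and each was lost when 1 whole experiment, controls included, was left out: in 4 of 6 such fits for Cyp4v3, 5 of 6 for Maob, Aldh1a3 and Dhrs7, and 6 of 6 for Cbr3 and Prdx4. With single libraries left out, Aldh1a3 and Dhrs7 were called in all 32 fits, Cyp4v3 in 30, Maob and Cbr3 in 29 and Prdx4 in 25. The Cyp4v3 call was also lost on log2(TPM + 1) and log2(TPM + 0.1) (adjusted p = 0.0740 and 0.0863), with limma-voom (0.151) and with edgeR on single libraries (0.127), and the Maob call without both fibroblast-rich libraries (0.0562). The libraries whose loss ended a call were control experiment 1 replicate 1 and mouse-host experiment 1 replicate 4 for Cyp4v3 (adjusted p = 0.0519 and 0.0640), and for Maob replicate 4 of mouse-host experiments 1 and 2 and replicate 3 of experiment 4 (0.0502 to 0.0588). For Cbr3 they were replicate 3 of mouse-host experiments 1 and 4 and rat-host replicate 2 (0.0542 to 0.0691). For Prdx4 they were control experiment 1 replicate 2, replicate 1 of mouse-host experiment 1, replicate 3 of experiments 2, 3 and 4, and replicates 2 and 4 of experiment 3 (0.0512 to 0.0765).

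No gene was called in the other 4 lists. Conjugation by other enzymes had 6 of 6 abundant genes negative. The smallest unadjusted p was that of the histamine methyltransferase gene Hnmt (24.0 CPM in the mouse host against 3.18 CPM, log2 fold change -2.88, SE 0.67, adjusted p = 0.126), with Ugdh and Ugp2, which supply UDP-glucuronate, at -0.82 and -0.80 (adjusted p = 0.499 and 0.309). Glutathione supply was balanced, 11 negative and 9 positive with a median of -0.09. There Hagh (glyoxalase II) had -0.46, Slc3a2, a subunit of the cystine carrier, -0.57 and Gpx7 3.77 (adjusted p = 0.425, 0.285 and 0.109 by edgeR). The Gpx7 value starts from only 1.40 CPM in the mouse host, and its rat-host libraries spread widely (18.3 ± 14.9 CPM, SD over 4 libraries). Of the 6 abundant xenobiotic receptor genes 2 were negative and 4 positive, with Cebpd at -1.01 and Tiparp, a target of the aryl hydrocarbon receptor, at -1.12 (adjusted p = 0.637 and 0.616). Cebpa, at 0.0598 CPM in the mouse host, had no read in the rat host, and no fold is given. Among transporters Abcc1 had -2.67 and Abcc3 0.99 (adjusted p = 0.377 and 0.387), and Slc22a4, at 1.70 CPM in the mouse host, had no read in the rat host. Over all 7 lists 77 of 113 abundant genes were negative, with a median of -0.25. Of all 15698 genes tested, with no such limit on level, 51.9% were negative and the median was -0.03. The 2 sets are thus not alike. Abundant genes also passed the limit partly through their level in the other arms, so these counts describe and do not test the lists.

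Between the ESC-derived cells of adult mouse hosts and native control cells, the contrast on which the 9 genes were not picked, none of them was called by edgeR, where 0% of all genes were called. At an unadjusted p below 0.05 there were 0 of the 9 genes and 691 of 15698. DESeq2 called 146 genes in this contrast and none of the 9. Log2 fold changes ran from -0.57 (SE 0.46) for Gstm1 to 0.32 (SE 0.23) for Gstt1, with 3 negative and 6 positive. The Gstm1 value rested on the fibroblast-rich control library: it was 0.19 without control experiment 2 replicate 3 and -0.03 without both fibroblast-rich libraries. The signs of Msrb3 (0.00), Ces1d, Gstt2 and Gsta4 also turned in at least 1 alternative. Ephx1 averaged 219 ± 15.2 CPM in the mouse host and 186 ± 12.1 CPM in the controls (SD over 4 and 2 experiments), and Gsta4 184 ± 20.6 and 194 ± 7.44 CPM. In counts simulated for this contrast the test called 12% of the 2-fold changes put in, and 68% of those of 16-fold.

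Native cells of the 2 control experiments, which differ in label by sex and by 3 weeks of age, were compared over their 4 libraries each. edgeR called none of the 9 genes, where 0.0173% of all genes were called, and 2 of the 9, against 5.39% of all genes, had an unadjusted p below 0.05. These were Ces1d, at 132 CPM in experiment 1 and 75.9 CPM in experiment 2 (log2 fold change 0.78, SE 0.29, adjusted p = 0.805), and Gstt2, at 102 and 67.5 CPM (0.58, SE 0.20, adjusted p = 0.738). Gstm1 had -1.02 (SE 0.64, adjusted p = 0.977), at 58.4 CPM in experiment 1 and 118 ± 146 CPM in experiment 2. Without the fibroblast-rich library the mean of experiment 2 was 44.8 ± 13.3 CPM (SD, n = 3 libraries) and the direction turned, to 0.37. Among the 4 mouse-host experiments none of the 9 genes was called either, where 1.35% of all genes were. Gstm1 spanned most there, 1.58 on the log2 scale from its highest to its lowest experiment (adjusted p = 0.310). These p-values measure the spread between the libraries at hand, which may be technical where libraries came from 1 animal.

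The grafted cells are the other arm in which the 9 genes were not picked, and all 9 had negative log2 fold changes against the mouse host, with a median of -0.44. For 7 of them the sign held in all 48 alternatives. Gstm1, at -0.04, was positive in 10 of them, and at 0.18 without both fibroblast-rich libraries, and Gstt2 was at 0.02 without graft replicate 2. Over all genes 54.4% were negative and the median was -0.09. edgeR called none of the 9, where 0.115% of all genes were called. At an unadjusted p below 0.05 were 3 of the 9, Ephx1, Ces1d and Gstt3, and 12.4% of all genes. Ephx1 had -0.94 (SE 0.19, adjusted p = 0.124), Ces1d -1.24 (SE 0.36, adjusted p = 0.229) and Gstt3 -0.80 (SE 0.27, adjusted p = 0.290). The graft and rat-host contrasts share the mouse-host libraries, so their values are given side by side and their likeness is not tested. Picking genes that are low in the rat host against those libraries can also tilt their graft values to negative. The count of 9 negative signs is therefore a description.

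Ephx1 was the clearest of them in the graft, with all 4 libraries under all 16 mouse-host ones, which 0.481% of the 8945 genes shared. DESeq2 called it (adjusted p = 2.86e-05), as did edgeR on single libraries and limma in 3 forms. Of these fits, edgeR on single libraries takes the 4 libraries of the 1 graft experiment as replicates. Its call therefore measures the spread between libraries and not between experiments. All of these fits called far more of all genes than the main one, with its 3 higher and 15 lower of 15698. DESeq2 called 182 higher and 1065 lower of 19819, edgeR on single libraries 208 and 269 of 13135, and limma-voom 209 and 107 of 13135. On log2(TPM + 1) limma called 156 and 77 of 15698, and on log2(TPM + 0.1) 139 and 234. Ces1d spread widely in the graft, at 113, 21.4, 53.8 and 6.60 CPM, and so did Gstt3, at 94.8, 41.9, 87.7 and 22.7 CPM, with the highest libraries inside the mouse-host range in both genes. DESeq2 called both, with adjusted p = 0.00881 and 0.0470. Gstm1 (-0.04, SE 0.61), Gstt2 (-0.18, SE 0.29) and Gsta4 (-0.38, SE 0.21) differed least. Cmbl and Msrb3, near absent in the rat host, were at 73.9% and 74.3% of the mouse host in the graft. Of the 15 abundant paralogs 12 were negative in the graft and none was called. Gstm7 had -1.58 (SE 0.38, adjusted p = 0.172) and Gstp2 -3.08 (SE 0.79, adjusted p = 0.190), while Mgst1 had 0.09 and Gstp1 -0.09, both nearer the mouse host than in the rat-host cells.

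Ranked by mean CPM over the 8 experiments, the rat host came last for 8 of the 9 genes and the graft next to last for 8, all but Gstm1. Mouse-host experiment 4 was first for Ephx1 (236 CPM), Ces1d (137 CPM) and Gstt3 (131 CPM). For Ephx1 the order ran on through mouse-host experiments 3, 1 and 2 (223, 218 and 199 CPM), control experiments 2 and 1 (194 and 177 CPM), the graft (112 CPM) and the rat host (48.6 CPM). Library ranges of neighbours in this order overlapped in 6 of 7 steps for Ephx1, Gsta4, Cmbl and Msrb3, and in 7 of 7 for the others. Per length, as mean TPM in the mouse host, the order was Gsta4 (272), Ephx1 (146), Gstt2 (80.4), Gstt3 (74.1), Ces1d (65.7), Gstm1 (61.9), Gstt1 (56.7), Cmbl (50.9) and Msrb3 (13.4).

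Across the 28 libraries outside the rat host the 9 genes did not rise and fall as 1 block. Pearson correlations of log2(CPM + 1) over their 36 pairs ran from -0.53 to 0.76 with a median of 0.10. The highest was between Ces1d and Gstt3 (0.76), followed by Ephx1 with Ces1d (0.62), and the lowest between Gstm1 and Cmbl (-0.53). Libraries of 1 experiment share their animals' age and sex, so the 28 points are not independent. Over 8718 genes, the profiles most like Ephx1 were those of Chrm1 (0.82), Ppfibp2 (0.80) and Coq10a (0.80). Those most like Gsta4 were Stx8 (0.74), Aldh6a1 (0.71) and Clp1 (0.71), and those most like Ces1d were Tbccd1 (0.80), Rragb (0.80) and Mpo (0.79).

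Reads were assigned to transcripts by the authors, and near-identical paralogs can exchange them. In the transcripts used here, 28.8% of the 31-base stretches of Gstm1 occur in another gene, mostly the pseudogene Gstm2-ps1 (22.6%), so its level is the least certain of the 9. For Gstt3 the share was 14.0%, mostly with Gm20441, for Ces1d 6.34% and for Gstt1 0.468%, and Gsta4 and Cmbl shared none. Gstp1 and Gstp2 share 38.5% and 60.3% of theirs. A single protein-coding transcript held over 94% of the reads in every arm for each of the genes except Gstt2, whose main transcript held 85.4% to 90.4%. The low levels in the rat host did not come with a change of main transcript.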

How the data were processed

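SMART-Seq HT libraries of 32 pools of tdTomato-positive parathyroid cells were quantified with Salmon, per the submitters' processing notes, which name GRCm39; its version is not given in the sources used here. Each deposited table holds, for each transcript, an estimated count (expected count) and a TPM value computed by the authors. Of 116747 transcripts, 115685 were matched to gene names of GENCODE M21 (GRCm38) and the other 1062 held 0.493% of the reads. Counts were summed per gene and rounded to whole numbers. Depth was 9470744 to 32264864 reads a library, and a count of 0 allows up to 3 reads; such limits cover counting error only.

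Counts were summed per experiment and tested with edgeR 4.0.16 (R 4.3.3) by quasi-likelihood with TMM scaling, filterByExpr and Benjamini-Hochberg adjustment over all 15698 genes kept, at a threshold of 0.05. The fit had 4 residual degrees of freedom, and the rat host and the graft, with 1 experiment each, were assumed to vary like the other arms. Control experiments, and mouse-host experiments among themselves, were compared over single libraries. CPM values are on TMM-scaled library sizes, and TPM served to compare genes. No 2 libraries of an experiment agreed within sampling noise (chi-square per degree of freedom at least 41.0 over 48 pairs). The alternatives were DESeq2 1.42.0, limma 3.58.1, other scalings and filters, and leaving out libraries or experiments. The test was tried on simulated counts of 15698 genes.

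The 9 genes, the paralog lists, the pathway lists and the cell type markers were chosen with earlier results of these data known. Named were the 9 genes, every paralog tested, the parathyroid markers, pathway genes called in an arm comparison and, in each pathway list, the 3 genes with the smallest unadjusted p for rat host against mouse host. For likeness, the 3 genes of the highest mean CPM each got the 3 genes with the highest Pearson correlation. Promoter sequences and gene order are from RefSeq on GRCm38.p6 and were matched by symbol.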

Additional observations from a re-analysis of the deposited data

Results flagged for a closer look

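In 72 sets of 4 libraries, 1 for each of the 9 genes in each of the 8 experiments, 5 held a library whose distance from the nearest of the others exceeded Dixon's 95% critical value as a share of the range. Chance marks about 1 in 20 such sets. Ces1d was at 147 CPM in replicate 3 of mouse-host experiment 1, where the others held 71.7 to 82.0 CPM, and at 166 CPM in replicate 1 of mouse-host experiment 4, where the others held 122 to 130 CPM. Gstt1 was at 0.0923 CPM, from 1 read, in replicate 3 of the graft, with 32.4 to 36.4 CPM in the others. Gstm1 was at 336 CPM in replicate 3 of control experiment 2 and at 211 CPM in replicate 4 of mouse-host experiment 2, with 29.7 to 54.3 and 31.7 to 53.5 CPM in the others. In those 2 libraries the 8 fibroblast markers summed to 4045 and 3115 CPM, and their part in the Gstm1 values was not tested. None of the 9 rat-host sets held such a library.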

How the results depend on the processing

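In each of 49 fits, 8 of the 9 genes were lower in the rat host than in the mouse host, and Gstt2 was not. Without rat-host replicate 1, Ces1d moved from -5.37 to -6.49 and Gstt1 from -4.32 to -5.77 (log2). Counts of genes called over the whole table depended far more on the tool. For rat host against mouse host, 101 genes were called, against 185 with library totals, 173 with no low-count filter, 1066 with DESeq2, 776 with edgeR on single libraries, 845 with a replicate block, 1043 with limma-voom, and 647 and 574 on log2(TPM + 1) and log2(TPM + 0.1). For graft against mouse host, 18 were called, against 53 with no filter, 1247 with DESeq2, 477 on single libraries, 419 with the replicate block, 316 with limma-voom, and 233 and 373 on the TPM scales. For mouse host against control, 0 became 146 with DESeq2, 14 on single libraries, 6 with the replicate block and 42 with limma-voom. Between control experiments 2 became 168 with DESeq2, and among mouse-host experiments 165 became 794 with DESeq2 and 105 with the replicate block. Leaving out 1 library gave 69 to 127 calls for the rat host, 5 to 77 for the graft, 0 to 4 between controls and 78 to 202 among mouse-host experiments. Leaving out 1 experiment gave 12 to 126 for the rat host and 0 to 6 for the graft. The causes were not tested. Same-numbered libraries of different experiments did not deviate together (mean r of -0.00731 over 112 pairs, 0.00244 over 336 others), so the numbers do not pair samples. Ephx1 in the graft passed in 6 of the 48 alternatives, edgeR with the replicate block among them (adjusted p = 0.0013). That fit, like edgeR on single libraries without the block, takes the 4 libraries of the 1 graft experiment as replicates. The p-values of both therefore measure the spread between libraries and not between experiments. In simulated counts, 18% of 4-fold and 48% of 16-fold changes between graft and mouse host were called, which limits what the graft comparison can show.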
